A study of Ciona robusta with 6 samples.

Results

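A set of 87 gene models of the sea squirt Ciona robusta had lower RNA levels in every library of Rnf149 CRISPR embryos than in any control library, by a margin of at least 1.3-fold. The models were chosen by their measured values: counts were scaled to CPM, that is each count as a share of its library's total on a common scale, a mean over the 6 libraries of at least 10 CPM was required, and the lowest control library had to reach 1.3 times the highest CRISPR library. Of the 17822 models in the table, 8496 reached 10 CPM, and 87 of these (1.02%) met the margin. Because all 6 libraries entered the choice, the difference between the groups is given for these models as a description, with no test.

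The Rnf149 CRISPR group held 3 libraries from embryos with CRISPR/Cas9 mutagenesis of Rnf149, and the control group held 3 libraries whose titles carry Tyr. Both groups came from dissociated Ciona robusta embryos at 20 h after fertilization, with 1000 sorted cells per sample, and the series is about the cardiopharyngeal lineage. The sources used here do not give the promoter that drove Cas9, the marker of the sort, the guides, the share of cells carrying a mutation or the number of embryos pooled. The labels do not say whether replicates are separate embryo pools, so p-values measure only the spread between these libraries, which could be technical.

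In Ciona, the cardiopharyngeal lineage is a small set of progenitors that gives rise to the heart and to the pharyngeal muscles of the siphon, and FGF and MAPK signalling takes part in the choice between these fates. RNF149 is a RING finger protein, a family with many E3 ubiquitin ligases, which attach ubiquitin to other proteins and often mark them for degradation. In human cells, RNF149 has been described as a ubiquitin ligase for the kinase BRAF, a part of the MAPK pathway.

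The deposited table does not pair its KY2019 identifiers with gene names, and 0 of the 17822 identifiers matched the RefSeq table of 21486 genes. No function, protein or promoter is therefore given for a model, and Rnf149, the Tyr gene and markers of the lineage or of other cell types were not analysed here. The chromosome and the running number of a model are read from its identifier. Library totals lay between 18127682 and 22115917 counts, and 15196 to 16271 models had at least 1 count. In sorted bulk RNA, fewer cells of a type and less RNA per cell cannot be told apart.

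The 87 models together took 5895, 5223 and 6100 CPM in Rnf149 CRISPR replicates 1, 2 and 3, against 11340, 11384 and 15195 CPM in control replicates 1, 2 and 3. Their summed level was thus 0.522% to 0.610% of the counts in the CRISPR libraries and 1.13% to 1.52% in the controls. The median member had a log2 difference of -1.10 (CRISPR over control, on log2(CPM + 0.5)), and the quartiles of the members were -1.49 and -0.85. The median over all 8496 models was 0.00. The mean of the CRISPR libraries was at least 2-fold below the mean of the controls in 52 of the 87 models. The smallest difference of means among members was 1.52-fold and the largest 26.5-fold. The largest was in a model that reached 10 CPM only with control replicate 2 counted.

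**Figure D1:**
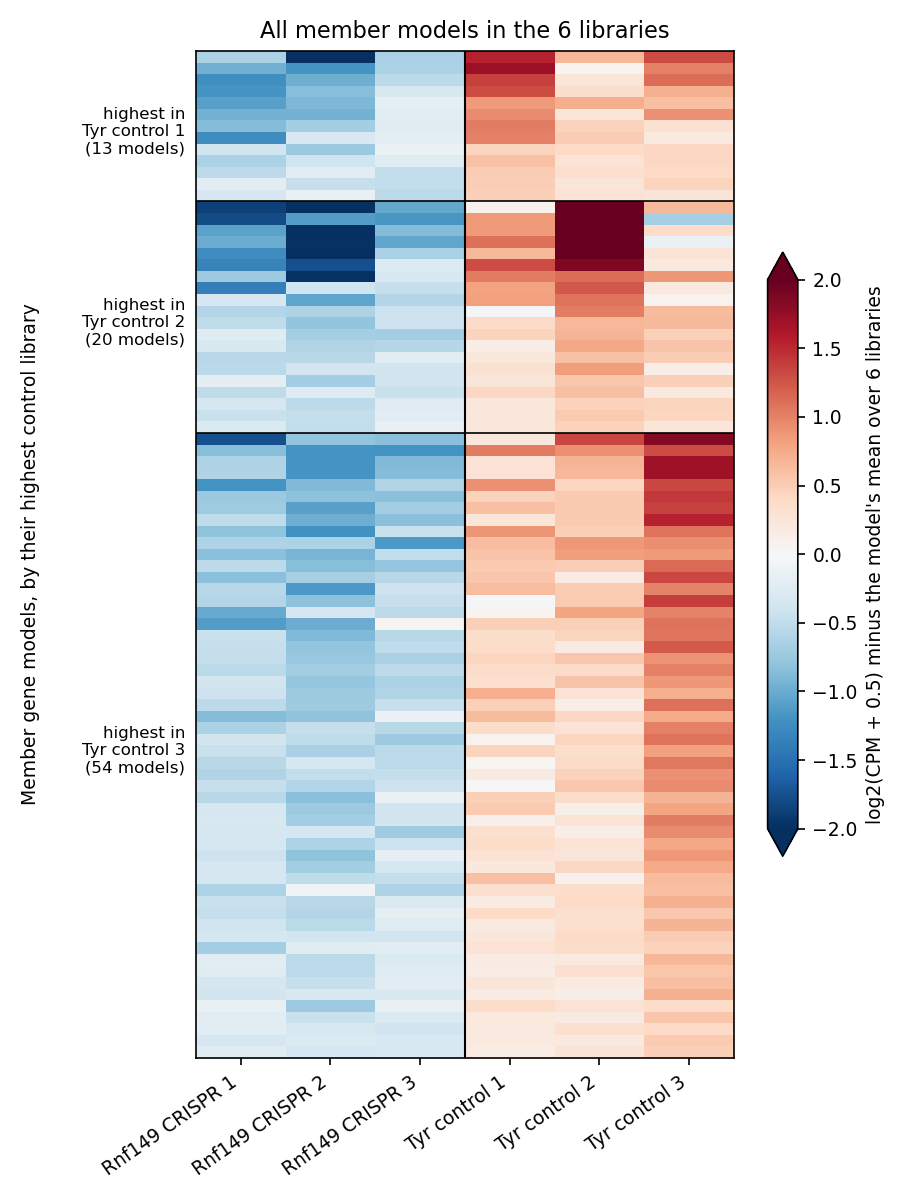
Log2(CPM + 0.5) of all 87 member models (rows) in the 3 Rnf149 CRISPR and the 3 control libraries (columns), each minus the model's mean over the 6 libraries, with rows grouped by the control library in which the model was highest. The CRISPR columns are below the row mean in nearly every row by construction of the set, and the 54 models at the bottom were highest in control replicate 3.

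A margin of at least 1.5 was reached by 39 of the 87 models and a margin of at least 2 by 13. In all, 628 of the 8496 models (7.39%) had every CRISPR library below every control, so 541 models with the same order fell short of the margin. The rule turned round, with every CRISPR library at least 1.3 times every control, held for 174 models (2.05%). By edgeR, 4 of the 87 members were lower at an adjusted p under 0.05, against 0.029% of the 13789 models tested, and no lower call (0) lay outside the set. Leaving out CRISPR replicate 3 raised that number of members to 8. It was 3 with control replicate 3 left out, 2 with control replicate 1 left out, and 1 when any of the other libraries was left out. By DESeq2, 79 members were lower, against 1.64% of 12890 models with an adjusted p. The members were chosen on the same contrast, so nothing is read from these counts.

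KY.Chr2.519, on chromosome 2, had the widest margin. Its level was 199.97, 157 and 158 CPM in CRISPR replicates 1, 2 and 3, against 744, 683 and 894 CPM in control replicates 1, 2 and 3. The means were 172 ± 24.4 CPM in CRISPR libraries and 774 ± 109 CPM in controls (SD, n = 3 each). Every control was thus at least 3.41 times every CRISPR library, and both groups were tight, with 1.27-fold between the highest and lowest CRISPR library and 1.31-fold among controls. The next widest margin was 2.55, in KY.Chr2.174.

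KY.Chr2.2178, also on chromosome 2, had 92.1, 30.2 and 91.9 CPM in CRISPR libraries, against 419.7, 229 and 355 CPM in controls, again in the order of the replicates. CRISPR replicate 2 and control replicate 2 were the lowest of their groups, and the groups stayed 2.49-fold apart at their nearest libraries. KY.Chr6.454, on chromosome 6, had 59.2, 58.9 and 40.8 CPM in CRISPR libraries, against 140.1, 167 and 174 CPM in controls. Its difference of means was 3.03-fold, with 1.45-fold between the highest and lowest CRISPR library and 1.24-fold among controls. KY.Chr1.724, on chromosome 1, had 382, 295 and 385 CPM in CRISPR libraries, against 945, 901 and 1614 CPM in controls. The controls spanned 1.79-fold here because replicate 3 stood above replicates 1 and 2, which lay close together.

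Among members near the abundance minimum, KY.Chr9.928 on chromosome 9 had 5.74, 5.38 and 5.32 CPM in CRISPR libraries, against 13.7, 14.4 and 27.1 CPM in controls. The CRISPR libraries were nearly level, at 104, 119 and 103 counts. KY.Chr7.362, on chromosome 7, had 6.56, 2.49 and 8.99 CPM in CRISPR libraries, against 23.2, 24.9 and 20.9 CPM in controls. Here the controls were the level group and CRISPR replicate 2, with 55 counts, was the low library.

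The most abundant member was KY.Chr1.2113, on chromosome 1, with 816, 850.2 and 856 CPM in CRISPR libraries, against 1178, 1148 and 1721 CPM in controls. The CRISPR libraries differed by only 1.05-fold among themselves, and control replicate 3 again stood above the other controls. KY.Chr5.709, on chromosome 5, had 403, 331 and 429 CPM in CRISPR libraries, against 745, 902 and 895 CPM in controls. KY.Chr2.1087 had 388, 298 and 462 CPM in CRISPR libraries, against 635, 614 and 945 CPM in controls. In KY.Chr2.1087 control replicate 3 stood above the others, while in KY.Chr5.709 control replicates 2 and 3 lay together above replicate 1. KY.Chr4.449, on chromosome 4, had 455, 390.4 and 435 CPM in CRISPR libraries, against 615, 599.6 and 781 CPM in controls. Its margin of 1.32 was close to the minimum in spite of 8251, 8635 and 8413 counts in the CRISPR libraries.

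**Figure D2:**
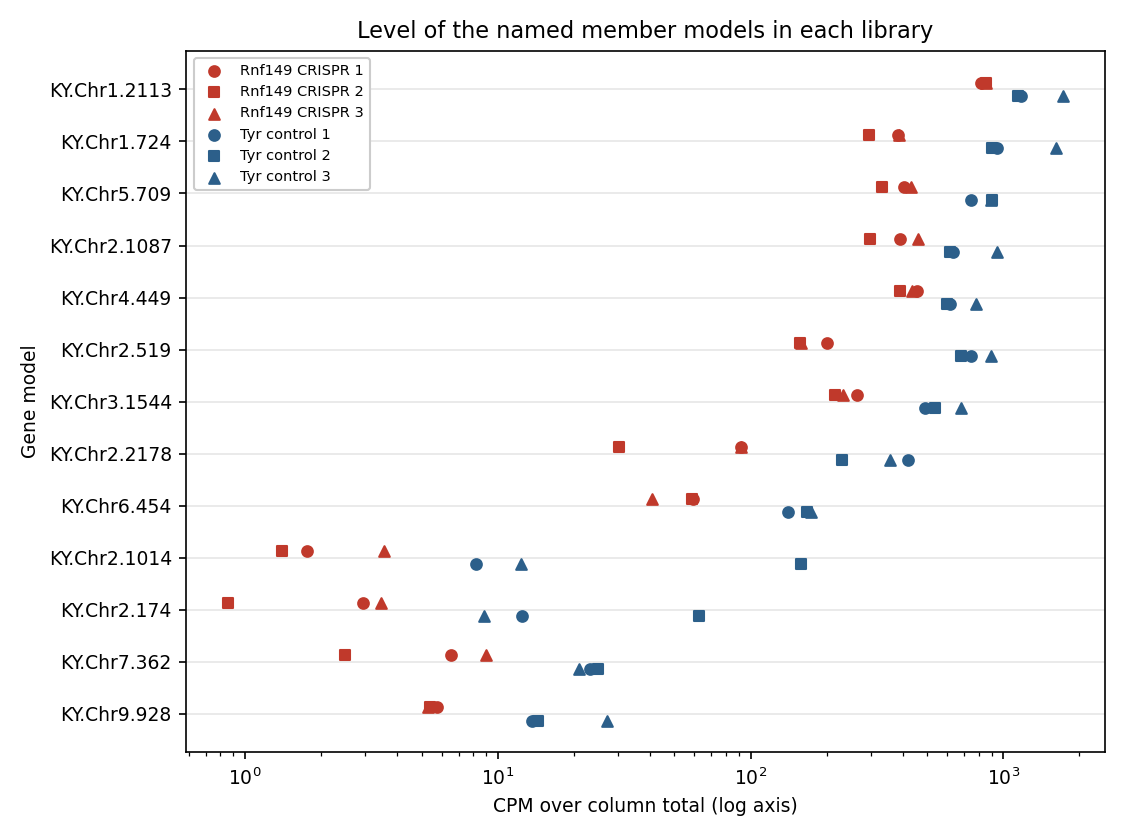
CPM (log axis) of 13 member models in each Rnf149 CRISPR library (red) and each control library (blue): the 8 with the widest margin, the 6 with the highest mean CPM and the 4 lower by edgeR, some of which overlap. In KY.Chr2.1014 and KY.Chr2.174, control replicate 2 lies far above the other controls.

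Members ranged from a mean of 10.1 to 1095 CPM, while the most abundant model in the table reached 20464 CPM. They made up 1.24% of the 2753 models with a mean of 10 to 30 CPM (34 members), 1.02% of the 3439 models from 30 to 100 CPM (35 members), 0.518% of the 1739 models from 100 to 300 CPM (9 members), and 1.59% of the 565 models above 300 CPM (9 members). From the lowest of these ranges to the highest, the median difference of means was 2.46-fold, 2.10-fold, 2.11-fold and 2.18-fold. The lowest count of a member was 9 in any library and 35 in a control, both in KY.Chr1.636.

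The models next to the threshold had nearly the same margin and differed in level. KY.Chr11.347, just inside with a margin of 1.303, had 57.9, 52.7 and 62.6 CPM in CRISPR libraries, against 86.6, 81.6 and 111 CPM in controls. Just outside, KY.Chr7.145 had a margin of 1.29, with 7.67, 12.0 and 15.1 CPM in CRISPR libraries, against 26.9, 19.6 and 20.5 CPM in controls. By counting error alone, the 95% interval (exact Clopper-Pearson) of the margin ran from 1.21 to 1.40 for KY.Chr11.347 and from 1.11 to 1.504 for KY.Chr7.145. KY.Chr4.1357 and KY.Chr10.1028 were the other members nearest to the threshold, at 1.303 and 1.31, and KY.Chr5.456 and KY.Chr4.1164 the next models outside it, at 1.29 and 1.28. Intervals of this kind cover counting error at most, since they take each read as an independent molecule, which was not tested. They leave out the spread between libraries and the picking of the nearest libraries by their values, so they can be too narrow.

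The rule acts on the lowest control and the highest CRISPR library, so it bears on the order of the libraries within a group, and that order is given as a description. Control replicate 3 was the highest control in 54 of the 87 members (62.1%), against 43.0% of the 8496 models. Control replicate 2 was highest in 20 (23.0%, against 23.3%) and control replicate 1 in 13 (14.9%, against 33.7%). Among the CRISPR libraries, replicate 2 was the lowest in 54 members (62.1%), against 36.9% of the 8496 models. CRISPR replicate 3 was the highest in 42 members and replicate 1 in 34. The most frequent combination, in 27 members, was control replicate 3 highest among controls with CRISPR replicate 1 highest among CRISPR libraries. Libraries with the same number are not known to be paired, and none of these shares was tested.

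The 54 members highest in control replicate 3 exceeded the next control by a median of 1.29-fold and by at most 2.04-fold. KY.Chr1.816, on chromosome 1, is an example outside the rule for naming, chosen after its values were seen. It had 37.6, 24.96 and 31.4 CPM in CRISPR libraries, against 70.5, 91.7 and 186 CPM in controls.

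The 5 members with the largest differences of means had control replicate 2 far above the other controls. All 5 reached a mean of 10 CPM only with control replicate 2 counted. Without that library, the rule chose 81 of the 87 members. Within the controls, 5 members differed at least 4-fold, and all 5 were highest in control replicate 2. KY.Chr2.1014, on chromosome 2, had 1.77, 1.40 and 3.57 CPM in CRISPR libraries, against 8.23, 158 and 12.4 CPM in controls, a 26.5-fold difference of means with a 19.2-fold range among controls. KY.Chr1.636, on chromosome 1, had 0.496, 1.09 and 1.03 CPM in CRISPR libraries, against 5.73, 51.2 and 1.68 CPM in controls. Control replicate 3 was only 1.55 times the highest CRISPR library in KY.Chr1.636. KY.Chr2.174 had 2.92, 0.859 and 3.46 CPM in CRISPR libraries, against 12.5, 62.4 and 8.84 CPM in controls. KY.Chr1.2358 had 4.80, 2.17 and 4.599 CPM in CRISPR libraries, against 21.95, 85.6 and 9.13 CPM in controls. The last of the 5, KY.Chr4.283, had the same order of controls as KY.Chr2.174, KY.Chr1.2358 and KY.Chr1.636, with replicate 2 highest and replicate 3 lowest. Without these 5 models, the largest difference of means among the remaining 82 members was 5.48-fold.

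**Figure D3:**
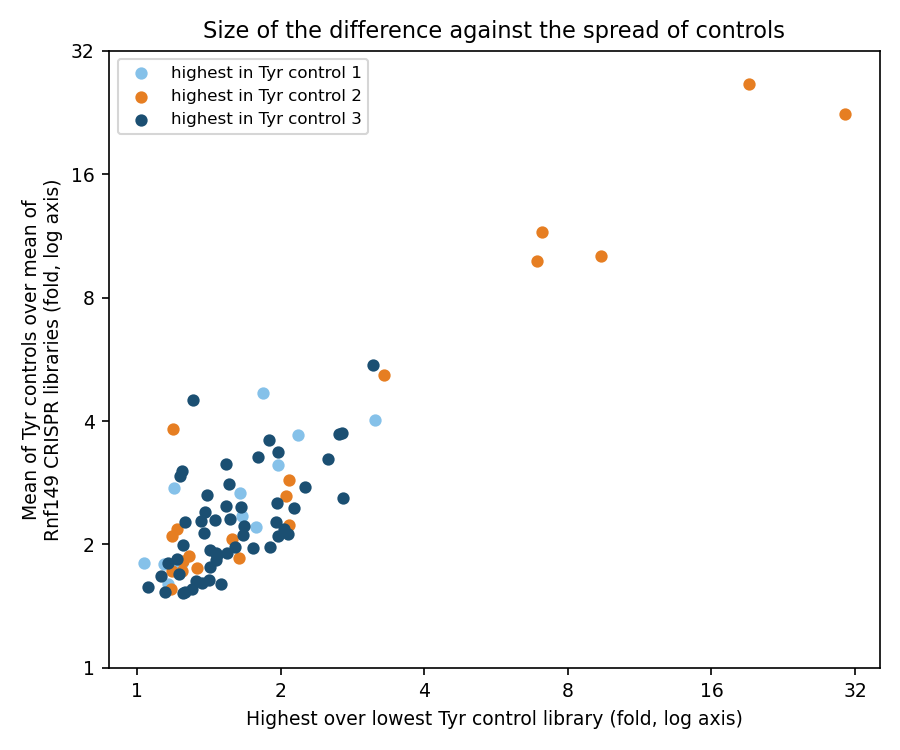
Difference of means (controls over Rnf149 CRISPR, fold, log axis) against the fold between the highest and lowest control library (log axis) for the 87 members, coloured by the highest control. The 5 points to the right, all highest in control replicate 2, have the 5 largest differences of means, and both axes share the control values. These 5 models reached 10 CPM only with control replicate 2 counted.

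At the other end, 3 members had almost level controls. KY.Chr3.1622, on chromosome 3, had 9.93, 7.78 and 12.2 CPM in CRISPR libraries, against 18.3, 17.7 and 17.9 CPM in controls. KY.Chr2.1393 had 69.9, 46.7 and 69.6 CPM in CRISPR libraries, against 99.7, 94.6 and 99.7 CPM in controls. KY.Chr1.2326 had 22.7, 31.0 and 31.7 CPM in CRISPR libraries, against 45.2, 47.5 and 50.7 CPM in controls. In all of them the spread lay in the CRISPR libraries, by 1.40-fold to 1.57-fold. Over the whole set the controls were the wider group in 60 of 87 members (69.0%), against 62.6% of the 8496 models. The median SD on the log2 scale was 0.20 in CRISPR libraries and 0.33 in controls for members, and 0.19 in CRISPR libraries and 0.25 in controls for all 8496 models.

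Whether models chosen this way stay lower in libraries that did not choose them was examined by leaving out 1 CRISPR and 1 control library at a time. The rule was applied to the other 4 libraries, and the log2 ratio of the left-out pair was then read. The left-out CRISPR library lay below the left-out control at the median in 7 of the 9 pairs. The lowest median was -0.64, for CRISPR replicate 2 over control replicate 2, where 84.9% of the 185 chosen models were lower, against 42.6% of all models with at least 10 CPM in the other 4 libraries. For CRISPR replicate 2 over control replicate 1 the median was -0.45 (78.7% of 244 chosen models lower, against 54.8%), and for CRISPR replicate 1 over control replicate 1 it was -0.32 (75.6% of 271 lower, against 51.9%).

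The remaining pairs with a negative median lay between -0.31 and -0.19. The exceptions both involved control replicate 3. For CRISPR replicate 1 over control replicate 3 the median was 0.05, with 48.2% of 415 chosen models lower, against 51.7%. For CRISPR replicate 3 over control replicate 3 the median was 0.56, and only 30.7% of the 655 chosen models were lower, against 50.9%. That pair thus ran opposite to the libraries that had chosen the models. The 9 pairs share libraries and the chosen sets overlap, so these values are descriptions with no p. Members are lower in every pair by definition. They were 82 of the 185 models chosen without CRISPR replicate 2 and control replicate 2. Without CRISPR replicate 3 and control replicate 3, they were 85 of the 655. The medians and shares therefore describe the rule applied to fewer libraries, and are no check of the members themselves.

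**Figure D4:**
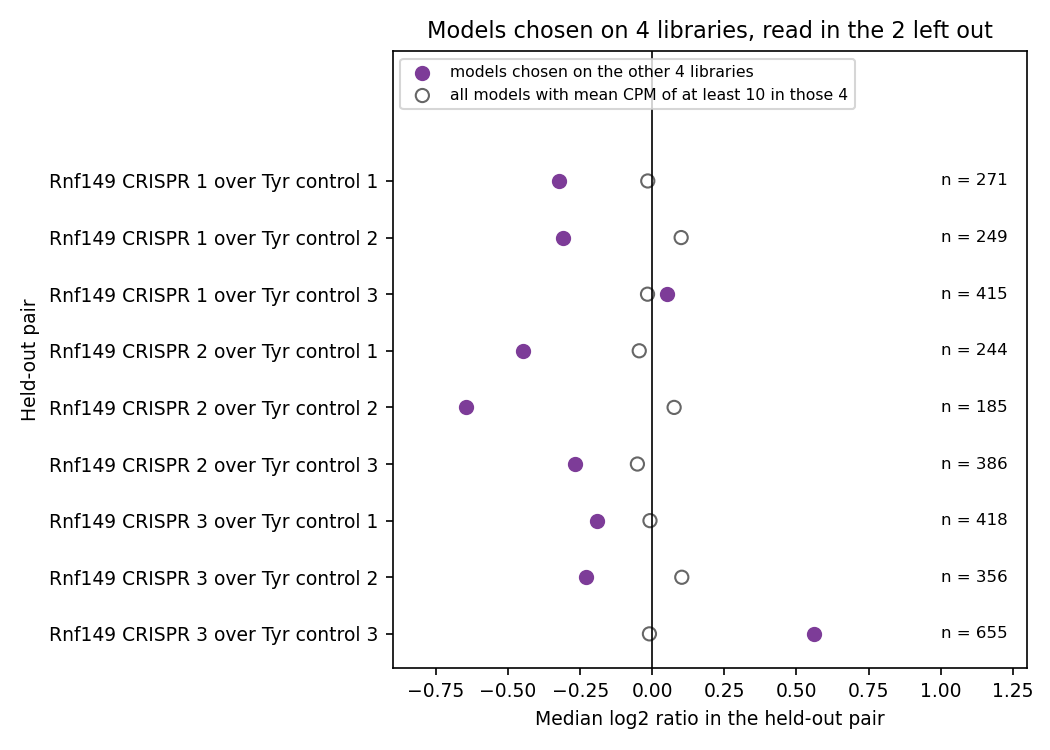
Median log2 ratio (Rnf149 CRISPR over control, CPM + 0.5) in each pair of libraries left out, for the models chosen on the other 4 libraries (filled points, n at the right) and for all models with a mean of at least 10 CPM in those 4 (open points). The filled points lie left of 0 in 7 of 9 pairs and reach 0.56 for CRISPR replicate 3 over control replicate 3.

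Libraries were also left out 1 at a time. Here the other group's libraries took part in the choice, so the left-out library was read against values already picked as high or low. The shares over all models carry no such choice. Members meet the criterion by definition. They were 87 of the 108 models chosen without CRISPR replicate 2, 87 of 134 without CRISPR replicate 1 and 87 of 244 without CRISPR replicate 3. For the controls they were 87 of 198 without replicate 1, 81 of 150 without replicate 2 and 83 of 335 without replicate 3. The gap between the chosen models and all models is therefore partly fixed by the choice. The order of the libraries by this share partly follows the number of models chosen, and nothing is read from either. Without CRISPR replicate 2 the rule chose 108 models, and CRISPR replicate 2 lay below all 3 controls in 97.2% of them, against 26.8% of all models at that abundance. Without CRISPR replicate 1 it chose 134, with 91.8% against 23.5%. Without CRISPR replicate 3 it chose 244, with 63.1% against 20.8%. Without control replicate 2 or 1, control replicate 2 lay above all CRISPR libraries in 80.0% of 150 models (against 22.6%) and control replicate 1 in 72.7% of 198 (against 29.1%). Without control replicate 3 it chose 335 models, and control replicate 3 lay above all CRISPR libraries in 34.3% of them, against 34.6% of all models. The number of models chosen was largest without control replicate 3 (335) and next largest without CRISPR replicate 3 (244).

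Members lay on 13 of the 14 numbered chromosomes, with 2 more on unassigned contigs. Chromosome 2 held 14 of its 748 models with at least 10 CPM (1.87%, 95% exact Clopper-Pearson interval 1.03% to 3.12%) and chromosome 5 held 12 of 577 (2.08%, 1.08% to 3.60%), against 1.02% over all. Chromosome 12 held 0 of 477, for which the same interval reaches 0.770%, and 3 models of 477 would be 0.629%. Models of the opposite direction numbered 8 on chromosome 2 (1.07%), 6 on chromosome 5 (1.04%) and 18 on chromosome 12 (3.77%), against 2.05% over all. Chromosomes 7, 8 and 13 also lay on different sides of the share over all in the 2 directions. Chromosomes 1, 3 and 9 were above it in both directions, and chromosomes 4, 6, 10, 11 and 14 were below it in both. The chromosomes were looked at together and none was tested. The intervals take models as independent.

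**Figure D5:**
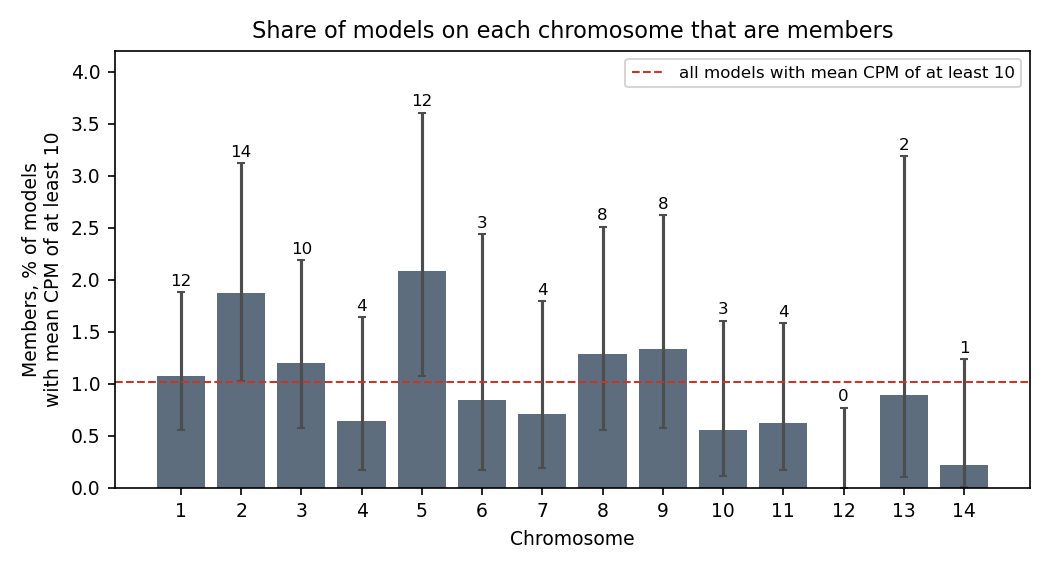
Share of the models with a mean of at least 10 CPM that are members, for each of the 14 numbered chromosomes, with 95% exact Clopper-Pearson intervals as bars and the number of members above them. The dashed line is the 1.02% over all 8496 models, and chromosomes 2 and 5 have the highest shares.

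Some members were neighbours by running number. Of 66 members with a neighbour that reached 10 CPM, 9 (13.6%) had a member beside them, while 1.35% of the 6576 models with such a neighbour did. The 9 formed 5 consecutive pairs, KY.Chr3.1544 with KY.Chr3.1545, KY.Chr5.756 with KY.Chr5.757, KY.Chr2.183 with KY.Chr2.184, and the run from KY.Chr5.159 to KY.Chr5.161. The 80 neighbours that were not members had a median log2 difference of -0.08, and 55.0% of them were lower in CRISPR libraries, against 49.0% of the 8409 models outside the set. KY.Chr2.184 and KY.Chr5.160, which belong to these pairs, had nearly the same counts as each other, and their levels are taken as uncertain, as described below. Whether neighbours share reads or a transcript was not tested.

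KY.Chr3.1544, on chromosome 3, had 263, 216 and 232 CPM in CRISPR libraries, against 490.4, 535 and 681 CPM in controls. Its neighbour KY.Chr3.1545 had 63.7, 48.0 and 52.9 CPM in CRISPR libraries, against 104, 122 and 151 CPM in controls. In both, the controls stood in the same order and CRISPR replicate 1 was the highest of its group. On chromosome 5, KY.Chr5.756 had 39.6, 26.1 and 43.9 CPM in CRISPR libraries, against 89.6, 82.9 and 116 CPM in controls. KY.Chr5.757 had 46.1, 51.8 and 48.8 CPM in CRISPR libraries, against 92.5, 87.2 and 146 CPM in controls. The order of the controls was shared by this pair, and that of the CRISPR libraries was not.

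KY.Chr5.159 had 18.6, 17.5 and 17.8 CPM in CRISPR libraries, against 24.7, 26.6 and 30.9 CPM in controls. KY.Chr5.160 had 52.3, 47.7 and 57.6 CPM in CRISPR libraries, against 78.4, 87.2 and 112 CPM in controls, and KY.Chr5.161 had 42.9, 42.1 and 50.03 CPM in CRISPR libraries, against 68.2, 84.5 and 79.6 CPM in controls. All 3 had margins between 1.33 and 1.36, close to the minimum. KY.Chr2.183 had 14.6, 14.6 and 18.7 CPM in CRISPR libraries, against 25.5, 32.8 and 31.1 CPM in controls. KY.Chr2.184 had 52.3, 48.3 and 58.5 CPM in CRISPR libraries, against 79.8, 94.4 and 117 CPM in controls.

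None of the 5 consecutive pairs (0) had log2 levels within 0.3 of each other in all 6 libraries, but 9 of the 3741 pairs of members did, with 13 members in them. The closest were KY.Chr1.816 and KY.UAContig3.1, of which KY.UAContig3.1 is on an unassigned contig. Their counts were 682 and 702 in CRISPR replicate 1, 552 and 576 in CRISPR replicate 2, and 607 and 619 in CRISPR replicate 3. In controls they were 1465 and 1502, 2005 and 2087, and 3881 and 4046. The log2 gap between them changed by only 0.03 over the 6 libraries. KY.Chr2.184 and KY.Chr5.160, on different chromosomes, followed with a largest gap of 0.11 on the log2 scale and 948 counts each in CRISPR replicate 1. KY.Chr11.347 and KY.Chr5.160 were also close, with a largest gap of 0.14. The rule gives all members a step in the same direction between the groups, and the share of such pairs among other models was not counted. The sources used here do not give how reads that match several places were counted. Whether any of these models share reads was not tested, so their levels are taken as uncertain. Whether KY.Chr1.816 and KY.UAContig3.1 are copies of 1 locus in the assembly was not tested. If they are, the 87 members and the 54 highest in control replicate 3 count it 2 times.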

How the data were processed

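RNA-seq libraries were made by the authors from 3 Rnf149 CRISPR and 3 Tyr control samples. Raw read counts per gene model, not normalized, were deposited in 1 table. STAR 2.7.0a, featureCounts, Subread and DESeq2 appear in the submitters' processing notes. The sources used here do not give the genome build, the strand setting or the treatment of multiply matching reads. Columns were matched to samples by title, and 0 columns were left over. No row lacked a gene model (0).

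CPM values are counts over the column total. Differences are group means of log2(CPM + 0.5). The whole-table fit used R 4.3.3 and edgeR 4.0.16 with filterByExpr, TMM scaling, robust glmQLFit and a 2-sided glmQLFTest, with Benjamini-Hochberg adjustment over 13789 models and a threshold of 0.05. DESeq2 1.42.0 and limma-voom (limma 3.58.1) were alternatives. The script was tested on simulated data with changes larger than those of most members, so that test does not cover the smaller differences. Library totals were 18127682 to 22115917 counts.

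The members and the rules for naming were chosen with earlier results of these data known. Models were named as the 8 with the widest margin, the 6 most abundant, those lower by edgeR, the 3 on each side of the threshold, 4 neighbouring pairs, and the 3 with the widest and the 3 with the narrowest range of controls. Listed regulators, muscle, ubiquitin, stress and other cell type genes were not counted, since 0 identifiers matched a name.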

Additional observations from a re-analysis of the deposited data

How the results depend on the processing

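The number of members was 97 with TMM library sizes and 98 with DESeq2 size factors, and 82 of the 87 were chosen under each. It was 628, 39 and 13 at margins of 1, 1.5 and 2. With a minimum mean of 1 or 30 CPM, or none, it was 191, 53 and 286. Leaving out 1 library gave 108 to 335 models, most without control replicate 3. The edgeR count of lower models was 4, all members. It stayed at 4 with RLE factors or no filter, was 1 with limma-voom and 1 without robust estimation, and was 212 with DESeq2, 79 of them members. Leaving out 1 library gave 1 to 12 lower calls, 1 to 8 of them members, most without CRISPR replicate 3. With a replicate block edgeR called 0 lower models (524 at an unadjusted p under 0.05, 85 of them members). The labels do not say that replicate numbers pair the libraries. Deviations of same-numbered libraries correlated at -0.07, -0.35 and -0.44, and 0 of 6 matched best with their own number. KY.Chr2.519 passed in 11 of 12 alternative fits, and missed with the block. KY.Chr3.1544 passed in 6, and KY.Chr5.709 and KY.Chr6.454 in 4 each. The median log2 difference of members ran from -1.20 to -0.95 over 10 alternatives. The sign of the named models' differences was fixed by the choice, since their groups do not overlap. Neighbouring pairs numbered 44 at a margin of 1 and 2 at 1.5. Of 27 alternative held-out medians, 22 kept their sign and moved by less than 0.34, the SD of the 9 medians. This tolerance is wider than the size of most of these medians, so a median within it can still have come near 0. At a margin of 1, CRISPR replicate 1 gave -0.12 over control replicate 1 and -0.005 over control replicate 2. CRISPR replicate 2 gave -0.14 over control replicate 1 and -0.23 over control replicate 3. CRISPR replicate 3 gave -0.071 over control replicate 1. At a margin of 1 the median was -0.17 for CRISPR replicate 1 over control replicate 3, 0.037 for CRISPR replicate 3 over control replicate 2, -0.056 for CRISPR replicate 2 over control replicate 2 and 0.013 for CRISPR replicate 3 over control replicate 3, which was 0.93 at a margin of 1.5. A wider or narrower margin keeps fewer or more models by construction, and the cause of the other differences was not tested.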

Other observations

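Members and models of the opposite direction were counted by abundance. From 10 to 30 CPM there were 34 members and 72 models of the opposite direction, from 30 to 100 CPM 35 and 46, from 100 to 300 CPM 9 and 32, and above 300 CPM 9 and 24. From the lowest range to the highest, 1.24%, 1.02%, 0.518% and 1.59% of the models were members, and 2.62%, 1.34%, 1.84% and 4.25% went the opposite way. Both shares were highest above 300 CPM, and no difference between them was tested.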
